A study of Mus musculus with 16 samples.

Results

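RNA from wild-type (WT) mouse microglia was compared with RNA from WT mouse astrocytes, using 4 of the 16 libraries of a study of Rack1 in an Alzheimer's disease (AD) mouse model. The members of the comparison were 2 WT microglia and 2 WT astrocyte libraries, taken by their labels, and the 55405 gene features present in both deposited count tables, of 55414 in the microglia table and 56980 in the astrocyte table. The other 12 libraries came in pairs from the same cell types with a conditional knockout of Rack1 (CKO), from the AD model with WT Rack1 (AD WT), and from the AD model that also carried the CKO (AD CKO). Microglia were the cells in which Rack1 was deleted, by the design text of the series. For the WT groups the labels give a genotype of WT and no treatment, and the age, sex, strain, floxed alleles, Cre driver, AD model and way of isolating the cells are not given in the sources used here. The labels call the libraries replicates but do not say whether they came from separate mice, so p-values measure only the spread between these libraries, which may be technical. All were made with a kit for small amounts of RNA (SMART-Seq v4, from 10 ng) and sequenced as paired reads.

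Microglia are the resident macrophages of the brain. They derive from the yolk sac, depend on the receptor CSF1R and on TGF-beta for their survival and identity, and take up debris through receptors that feed a large lysosomal system. Astrocytes derive from neural progenitors, clear glutamate and potassium from around synapses, line blood vessels with end-feet, couple to each other through gap junctions and supply neurons with lactate and cholesterol. The cells signal to each other through secreted factors and receptors, and many genes tied to the inherited risk of Alzheimer's disease are expressed mainly in one of them.

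The 4 libraries held from 30236747 to 33999602 counts each. Levels are in CPM (counts per library total, times 1e6), where totals were scaled by TMM factors computed over these 4 libraries. Log2 fold changes are microglia minus astrocytes, with the standard error after ±, and a gene is called higher in a cell type at an adjusted p under 0.05 in edgeR's quasi-likelihood test with Benjamini-Hochberg adjustment over all 18456 genes tested. Log2 counts of the libraries of a group correlated across genes at 0.987 in microglia and 0.992 in astrocytes, against at most 0.638 between the cell types, where genes are not independent replicates. Cell type coincides with the deposited table, and the tables differ in their gene names: 2361 shared features differ in their symbol entry, 67 of them among the genes tested. Annotation and cell type therefore cannot be told apart, while features absent from the microglia table held at most 0.181% of the counts of a WT astrocyte library.

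Sex-linked genes did not match between the groups. Xist, the RNA that silences one X chromosome in female cells, was at 210 and 207 CPM in the WT microglia libraries and at 0 and 0.0272 CPM in the WT astrocyte libraries. Y-linked genes were present in all 4 libraries and lower in microglia, with Ddx3y at 8.42 and 6.02 CPM against 99.7 and 106 CPM, and Eif2s3y at 7.46 and 6.05 CPM against 112 and 121 CPM. The microglia libraries thus held both Xist and Y-linked RNA, the astrocyte libraries almost only Y-linked RNA, and the libraries of a group were close to each other. Sex and cell type cannot be told apart here. Of 569 X-linked genes tested, 89 (15.6%) were at least 4-fold higher in microglia and 162 (28.5%) in astrocytes, where 15.9% and 22.8% of all genes tested were. Of 10 Y-linked genes tested, 1 was at least 4-fold higher in microglia and 6 in astrocytes.

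The defining markers followed the labels. Csf1r, the receptor for CSF1 and IL-34, was at 13420 and 13840 CPM in microglia and at 53.4 and 50.1 CPM in astrocytes. P2ry12, the ADP receptor of surveying microglia, was at 6275 and 6341 CPM against 51.9 and 52.8 CPM. Aldh1l1, a folate enzyme used to mark astrocytes, was at 5.33 and 7.65 CPM in microglia and at 322 CPM in each astrocyte library. Slc1a3, the glutamate transporter GLAST, was at 212 and 207 CPM against 5182 and 5395 CPM, and Aqp4, the water channel of astrocyte end-feet, was at 7.60 and 9.14 CPM against 932 and 975 CPM. For each of these 5 genes both libraries of one cell type lay above both of the other, which also held for 92.0% of all genes tested. All 10 microglia markers and all 10 astrocyte markers were called in the labelled direction and differed at least 4-fold. Csf1r differed by 8.04 ± 0.07 on the log2 scale, and the astrocyte markers ran from -7.82 (Gjb6) to -2.91 (Gfap).

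**Figure D1:**
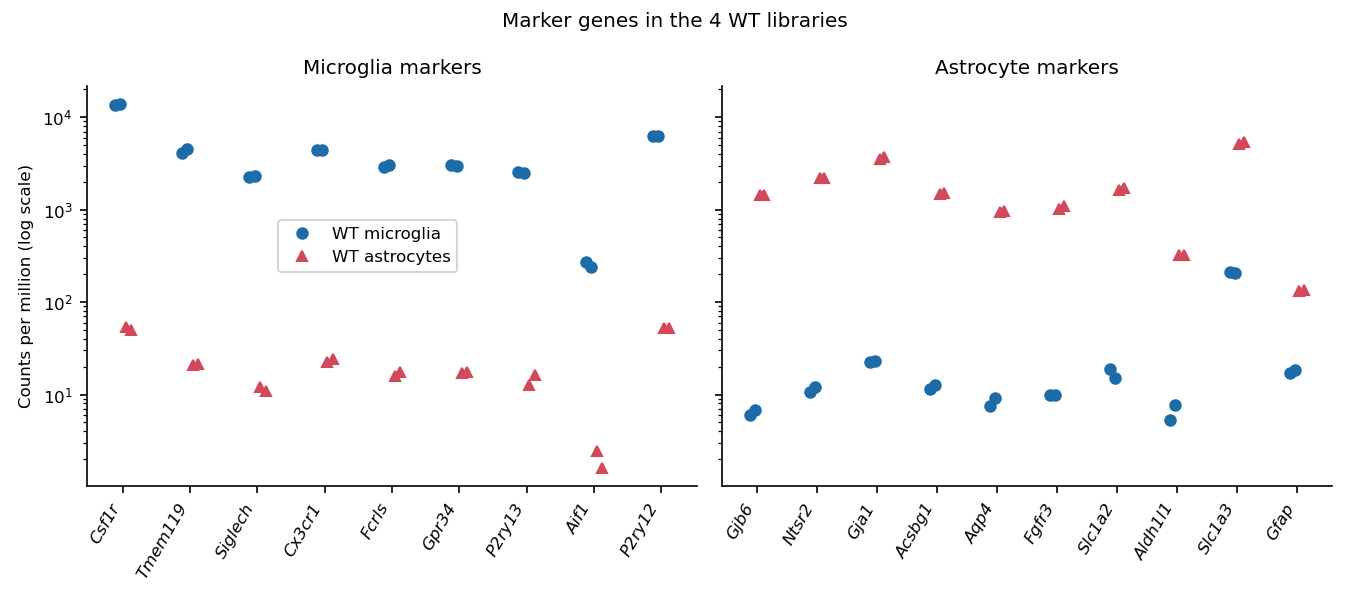
CPM of 9 microglia and 10 astrocyte marker genes in each of the 4 WT libraries, on a log axis; each point is 1 library. Csf1r lies at 13420 and 13840 CPM in microglia and near 50 CPM in astrocytes, and Gfap is the astrocyte marker with the smallest distance between the groups.

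Low levels of the other cell's markers were found in both groups. The 10 microglia markers summed to 53320 and 54450 CPM in microglia and to 420 and 423 CPM in astrocytes, and the 10 astrocyte markers to 322 and 321 CPM in microglia and 17870 and 18510 CPM in astrocytes, with no marker at 0 in any library. Markers of oligodendrocytes, the myelin-forming cells, summed to 3464 and 3604 CPM in microglia and to 12450 and 12740 CPM in astrocytes; all 10 were higher in astrocytes, 8 at least 4-fold, and Mbp, which encodes myelin basic protein, was at 4196 and 4310 CPM against 2433 and 2585 CPM. Astrocytes also held the higher sums of endothelial (2128 and 2143 against 568 and 556 CPM), mural (748 and 729 against 238 and 243 CPM) and ependymal and choroid markers (6812 and 6670 against 1686 and 1621 CPM), none at 0, and of fibroblast (136 and 134 against 21.6 and 23.6 CPM) and erythroid markers (134 and 123 against 26.7 and 19.9 CPM). Microglia held the higher sums of border macrophage and monocyte markers (264 and 258 against 19.5 and 19.2 CPM) and of neutrophil markers (263 and 241 against 43.3 and 46.1 CPM). Neuron markers summed to 15.8 and 14.9 CPM in microglia and 48.1 and 50 CPM in astrocytes. Their part in the results below was not tested, and in bulk RNA fewer cells of a type and less RNA per cell cannot be told apart.

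Most expressed genes differed. Of the 18456 genes tested, 7627 (41.3%) were higher in microglia and 7910 (42.9%) higher in astrocytes, 84.2% in all. The cell types did not overlap, library by library, for 92.0% of genes. At least 4-fold differences were called for 2932 genes (15.9%) in favour of microglia and 4207 (22.8%) in favour of astrocytes. The size of this excess depends on the scaling. The counts were 3601 and 3677 when scaled to 10 housekeeping genes, and 2628 and 4607 with library totals alone. Past 256-fold the order turned, with 347 genes higher in microglia and 218 in astrocytes, although fitted folds of that size rest on very few counts in the lower group. Small differences depend on the scaling: other factors moved the median over all genes by -0.25 to 0.40 on the log2 scale, so a log2 difference under about 0.4 has no firm direction. Among 10 housekeeping genes the median was -0.44, and 8 were higher in astrocytes.

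**Figure D2:**
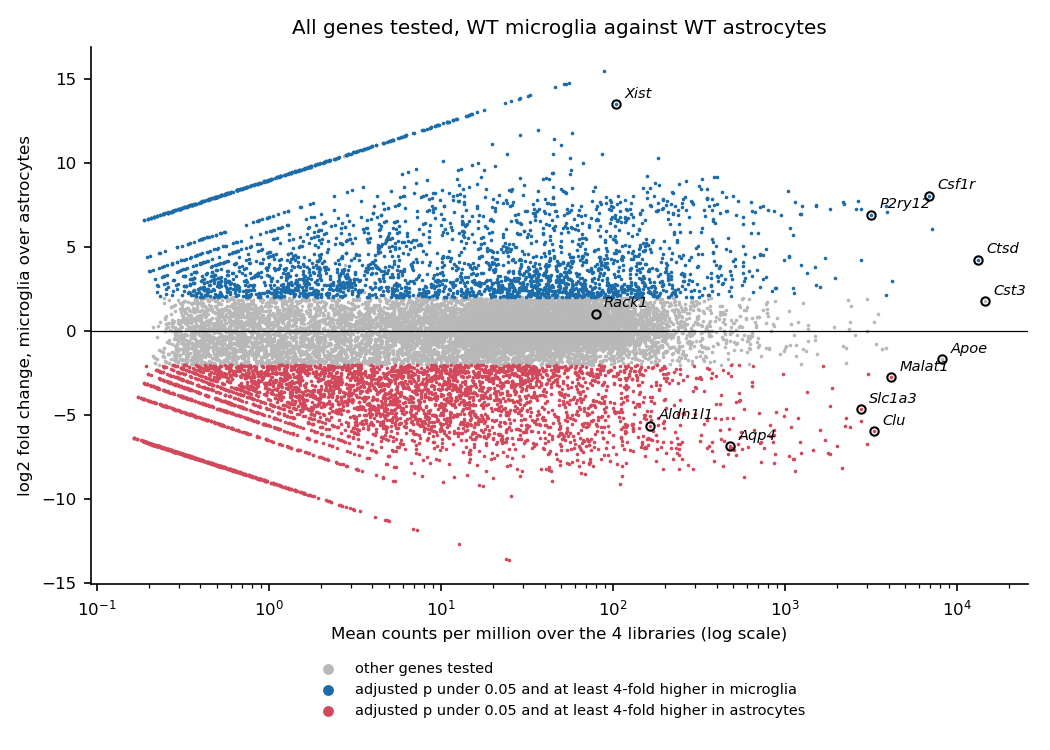
Log2 fold change of each tested gene (microglia minus astrocytes) against its mean CPM over the 4 libraries on a log axis, with genes called at least 4-fold higher in either cell type coloured. The 2932 and 4207 coloured genes reach past 256-fold on both sides; the straight diagonal rows of points are genes with no or almost no counts in one group, whose fitted folds are not measured sizes.

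Among genes with a mean of at least 50 CPM, the 15 largest folds on each side were taken by rule, and the genes below are examples. Csf2rb, the beta chain shared by the receptors for GM-CSF, IL-3 and IL-5, was at 173 and 174 CPM in microglia and at 0.181 and 0.0544 CPM in astrocytes. Cst7, which encodes an inhibitor of cysteine cathepsins, was at 366 and 363 CPM against 0.302 and 0.272 CPM, a log2 fold change of 10.30 ± 0.12. Il10ra, the IL-10 receptor, was at 759 and 781 CPM against 1.45 and 1.25 CPM. The rule took only genes whose groups did not overlap, which held for 92.0% of all genes tested. Others were Nckap1l, a haematopoietic subunit of the WAVE complex that drives actin branching, at 817 and 791 CPM against 1.33 and 1.49 CPM, and Dock2, a Rac activator of blood cells, at 667 and 644 CPM against 1.18 and 1.30 CPM. Pik3cg, the PI3-kinase subunit driven by chemokine receptors, was at 355 and 350 CPM against 0.635 and 0.924 CPM, and Mpeg1, the pore-forming perforin-2 of macrophages, at 443 and 522 CPM against 1.03 and 1.22 CPM. Xist and the processed pseudogene Atp6v0c-ps2 also met the rule for the largest folds; Atp6v0c-ps2 had 136 and 94.9 CPM in microglia and 0.0605 and 0 CPM in astrocytes, and reads of a pseudogene can be shared with its parent gene.

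On the astrocyte side the largest fold among these genes was that of Cldn10. Cldn10, a claudin, was at 1180 and 1128 CPM in astrocytes and at 2.63 and 3.08 CPM in microglia, a log2 fold change of -8.66 ± 0.09. Htra1, a secreted serine protease, was at 2324 and 2225 CPM against 7.14 CPM in each microglia library. Gpr37l1, an orphan receptor, was at 4242 and 4258 CPM against 14.5 and 16.2 CPM. Groups that did not overlap were again a condition of the rule. The Wnt ligands Wnt7a and Wnt7b were at 123 and 131 CPM and at 218 and 230 CPM in astrocytes, and both were at 1.01 CPM or less in the microglia libraries, and the Wnt receptor Fzd2 was at 132 and 142 CPM against 0.462 and 0.290 CPM. Gabrg1, a subunit of GABA-A receptors, was at 552 and 604 CPM against 1.85 and 2.03 CPM. Omg, a glycoprotein named for oligodendrocytes and myelin, was at 855 and 885 CPM in astrocytes and at 3.70 and 3.01 CPM in microglia.

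The most abundant transcripts also differed. In microglia Ctsd, the lysosomal protease cathepsin D, was at 24570 and 25830 CPM, against 1331 and 1324 CPM in astrocytes. Cst3, the secreted protease inhibitor cystatin C, ranked among the 10 most abundant genes of both cell types, at 22380 and 22620 CPM in microglia and 6908 and 6429 CPM in astrocytes. Apoe, which encodes a lipid carrier, was the most abundant gene of astrocytes at 13180 and 11960 CPM, against 3685 and 4085 CPM in microglia. Per kilobase of exon, a scale that allows genes to be compared with each other, Cst3 stood at 17770 CPM in microglia and Apoe at 5877 CPM in astrocytes. The nuclear RNA Malat1 was also among the 10 most abundant of astrocytes, but its call was lost without astrocyte library 1 (log2 fold change -2.73, adjusted p = 0.0558).

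Transcription factors separated the lineages. Of 20 myeloid factors tested, 19 were higher in microglia, 18 of them at least 4-fold, and 1 in astrocytes. Their median log2 fold change was 4.42 against -0.03 over all genes tested, of which 41.3% and 42.9% were higher in microglia and in astrocytes. Spi1, which encodes the macrophage master factor PU.1, was at 349 and 359 CPM in microglia and 2.33 and 2.69 CPM in astrocytes. Irf8, a partner of PU.1, was at 688 and 721 CPM against 2.54 and 3.21 CPM, and Ikzf1, a zinc finger factor of blood cells, at 320 and 310 CPM against 0.363 and 0.680 CPM. Sall1, a factor that keeps microglial identity, was at 581 and 611 CPM against 25.2 CPM in each astrocyte library. The exception was Ikzf2, at 8.63 and 7.36 CPM against 11.7 and 11 CPM (log2 fold change -0.50 ± 0.15), a call that was lost with housekeeping scaling and without astrocyte library 1 (adjusted p = 0.546 and 0.0530). All 23 astroglial factors were higher in astrocytes, 20 at least 4-fold, with a median of -6.57. Hes5, a Notch target, was at 219 and 230 CPM in astrocytes and 0.533 and 0.616 CPM in microglia; Sox9, which specifies glia, was at 498 CPM in each astrocyte library and 4.62 and 5.84 CPM in microglia. Nfia, a factor that starts gliogenesis, had the smallest difference of the list, at 87.1 and 89.7 CPM against 40.4 and 45.7 CPM.

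Promoters are shown for genes on both sides of this contrast, because PU.1 recognises a short purine-rich sequence. RefSeq windows (GRCm38.p6, 250 bases before to 50 after a gene's start) were searched on both strands for GAGGAAGT, a sequence of the PU.1 type. It was found in 3.20% of all 32851 windows, in 3.07% of the windows of tested genes, in 6.88% (160 of 2326) of those of genes at least 4-fold higher in microglia, and in 1.62% (59 of 3633) of those of genes at least 4-fold higher in astrocytes. A longer sequence in which PU.1 sits beside an IRF site, GGAA and GAAA with 2 bases between them, was found in 2.72%, 2.42%, 3.44% and 1.98% of the same 4 sets, and the SOX sequence AACAATG in 3.78%, 2.25%, 2.36% and 2.59%. The NFI palindrome, TTGGC and GCCAA with 5 bases between them, was found in 12 windows of all promoters, too few to compare. Some genes have several windows, some windows overlap, and a match is a description, not a binding site. The windows below are printed on the gene's strand, 5′ to 3′, with the GAGGAAGT match or its reverse complement in capitals, and end 30 bases after the start. Ctss encodes the lysosomal protease cathepsin S, C1qc a chain of complement C1q, and Pld4 a lysosomal nuclease; they were picked as microglia genes that hold a match, and the astrocyte marker Slc1a3 is shown as one that holds none.
Ctss, chr3:95526536-95526815, plus strand: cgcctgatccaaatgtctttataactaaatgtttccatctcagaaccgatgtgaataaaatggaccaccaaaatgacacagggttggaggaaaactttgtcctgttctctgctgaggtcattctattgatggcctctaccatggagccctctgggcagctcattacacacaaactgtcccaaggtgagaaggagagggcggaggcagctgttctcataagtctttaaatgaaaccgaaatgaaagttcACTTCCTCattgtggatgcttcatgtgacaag
C1qc, chr4:136892885-136893164, minus strand: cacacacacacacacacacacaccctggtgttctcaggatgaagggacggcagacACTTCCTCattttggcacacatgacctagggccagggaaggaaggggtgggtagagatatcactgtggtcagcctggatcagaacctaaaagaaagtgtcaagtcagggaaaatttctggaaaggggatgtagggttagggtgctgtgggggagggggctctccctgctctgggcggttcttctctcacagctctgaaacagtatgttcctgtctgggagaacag
Pld4, chr12:112760405-112760684, plus strand: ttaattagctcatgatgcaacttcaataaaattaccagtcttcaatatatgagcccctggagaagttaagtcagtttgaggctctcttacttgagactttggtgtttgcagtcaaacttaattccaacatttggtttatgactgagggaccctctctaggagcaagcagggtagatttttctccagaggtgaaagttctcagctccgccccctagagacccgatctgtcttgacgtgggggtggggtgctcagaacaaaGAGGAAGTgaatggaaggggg
Slc1a3, chr15:8710778-8711057, minus strand: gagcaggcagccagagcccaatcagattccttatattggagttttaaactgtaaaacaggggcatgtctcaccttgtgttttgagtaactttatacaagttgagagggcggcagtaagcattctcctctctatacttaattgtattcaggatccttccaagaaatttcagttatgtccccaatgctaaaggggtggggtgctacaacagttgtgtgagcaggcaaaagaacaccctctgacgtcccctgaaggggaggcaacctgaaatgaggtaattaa
The match begins 2 bases before the gene start in Ctss, 195 bases before it in C1qc, and 9 bases after it in Pld4. Of the 10 microglia markers, windows of 6 were searched, and none of them held GAGGAAGT. Windows of 9 of the 10 astrocyte markers were searched, and none of these did either. The other markers, Csf1r and Aqp4 among them, were left out of this look at single markers. Whether their promoters hold a match is not reported here.

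Genes of the homeostatic state moved with their cell type. All 24 surface and secreted genes of homeostatic microglia were higher in microglia, 21 at least 4-fold, median 7.40, beside 41.3% and 15.9% of all genes tested. Cx3cr1, the fractalkine receptor, was at 4369 and 4430 CPM in microglia and at 22.6 and 24.1 CPM in astrocytes, and Tmem119, a membrane protein of unsettled function, at 4100 and 4550 CPM against 20.9 and 21.5 CPM. The smallest difference was in Adgrg1, an adhesion receptor, at 1372 and 1457 CPM against 962 and 984 CPM (0.54 ± 0.05). All 25 homeostatic astrocyte genes were at least 4-fold higher in astrocytes, median -6.74, beside 22.8% of all genes tested. Gja1, the gap junction protein connexin 43, was at 3499 and 3720 CPM in astrocytes and at 22.3 and 22.9 CPM in microglia.

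Of 24 adhesion and gap junction genes 9 were higher in microglia and 15 in astrocytes, median -3.58. The shares of all genes tested were 41.3% and 42.9%. Microglia had the leukocyte integrins Itgam (CD11b), at 2046 and 2122 CPM against 6.71 and 6.42 CPM, and Itgb2 (CD18), at 771 and 758 CPM against 4.87 and 3.78 CPM. Integrin subunits were not all on that side, since Itgb8, a partner in the release of active TGF-beta, was at 117 and 122 CPM in astrocytes and at 4.87 and 3.99 CPM in microglia. The cell adhesion molecules Ncam1, at 717 and 723 CPM against 6.86 and 5.62 CPM, and Cdh2 (N-cadherin), at 225 and 236 CPM against 1.53 and 1.96 CPM, were higher in astrocytes. Genes of the dystrophin complex, which anchors end-feet to the basal lamina, were higher in astrocytes as well, Dmd (dystrophin) at 193 and 204 CPM against 6.93 and 6.53 CPM and Dtna (dystrobrevin alpha) at 227 and 233 CPM against 5.29 and 4.60 CPM. Vascular adhesion genes were on opposite sides, Icam1 being at 250 and 261 CPM in microglia against 17.5 and 17.4 CPM, and Vcam1 at 547 and 559 CPM in astrocytes against 53.4 and 54.2 CPM.

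Transmitter clearance lay with astrocytes. Of 19 genes that handle glutamate and GABA 18 were higher in astrocytes and 1 in microglia, median -4.35. Slc1a2, the glutamate transporter GLT-1, was at 1635 and 1725 CPM in astrocytes and at 19.1 and 14.9 CPM in microglia. Glul, which turns glutamate into glutamine, differed less, at 1094 and 1064 CPM against 362 and 392 CPM. The libraries of the groups did not overlap for either gene, which also held for 92.0% of all genes tested. By comparison, 42.9% of all genes tested were higher in astrocytes and 41.3% in microglia.

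Ion and purine genes lay on both sides. Of 20 channels and pumps tested 11 were higher in microglia and 9 in astrocytes, beside 41.3% and 42.9% of all genes tested. All but 3 differed at least 4-fold. Of all genes tested 15.9% and 22.8% were at least 4-fold higher in microglia and in astrocytes. Kcnj10, the inward rectifier that buffers potassium, was at 97.9 and 100 CPM in astrocytes and at 4.87 and 4.86 CPM in microglia, and Atp1b2, a sodium pump subunit, at 2825 and 2941 CPM against 21.4 and 21.1 CPM. Background potassium channels were split. Kcnk6 was higher in microglia, at 289 and 304 CPM against 0.877 and 0.788 CPM, and so was Kcnk13, at 130 and 134 CPM against 31.4 and 29.9 CPM. Kcnk1, of the same family, was higher in astrocytes, at 24149 and 27767 counts against 211 counts in each microglia library. The proton channel Hvcn1 was higher in microglia, at 380 and 399 CPM against 1.42 and 2.07 CPM. Of 17 purine genes 9 were higher in microglia and 8 in astrocytes, beside the same shares of all genes, and 16 differed at least 4-fold. The ATP-degrading enzymes differed by family member, Entpd1 (CD39) being at 894 and 870 CPM in microglia and 27.7 and 31.4 CPM in astrocytes, and Entpd2 at 1.35 and 1.27 CPM in microglia and 393 and 383 CPM in astrocytes. The ADP and UDP receptors differed likewise, P2ry6 being at 350 and 373 CPM in microglia and 2.39 and 2.47 CPM in astrocytes, and P2ry1 at 2.49 and 2.61 CPM in microglia and 26.4 and 25 CPM in astrocytes. Among adenosine receptors, Adora3 was higher in microglia, at 92.6 and 94.6 CPM against 0.937 and 0.734 CPM, and Adora2b in astrocytes, at 147 CPM in each library against 1.78 and 1.63 CPM.

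Signals between glia were followed from ligand to receptor. Of 28 ligand genes 13 were higher in microglia and 15 in astrocytes (median -0.89), beside 41.3% and 42.9% of all genes tested, and of 29 receptor genes 19 were higher in microglia and 10 in astrocytes (median 1.75). The ligands of CSF1R were low beside the receptor. Il34, a CSF1R ligand, was at 5.50 and 6.44 CPM in astrocytes and at 2.45 and 2.32 CPM in microglia, whereas Csf1, the other ligand, was at 86.2 and 92.1 CPM in microglia and at 53.6 and 57.1 CPM in astrocytes. Per kilobase, Csf1 stood at 16.9 CPM in microglia and 10.5 CPM in astrocytes, and Csf1r at 2361 CPM in microglia. Il33, an alarmin cytokine, was at 452 and 481 CPM in astrocytes and at 4.69 and 6.78 CPM in microglia, and its receptor Il1rl1 was at 25.7 and 24.2 CPM in microglia and at 0 and 0.0544 CPM (0 and 2 counts) in astrocytes. Ligand and receptor of this pair lay in opposite cells.

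Of the ligands, chemokine and cytokine genes had the largest folds toward microglia. Ccl3, which attracts leukocytes, was at 201 and 204 CPM in microglia and at 1.69 and 2.17 CPM in astrocytes, and the related Ccl4 at 211 and 197 CPM against 1.97 and 1.44 CPM. The inflammatory cytokines Il1a and Tnf were at 157 and 159 CPM against 1.78 and 1.55 CPM, and at 14.7 and 13.8 CPM against 0.574 and 0.272 CPM. For a pair of inhibitory systems the ligand was higher in astrocytes and the receptor in microglia. Cd200, a surface ligand that restrains myeloid cells, was at 48.9 and 51.7 CPM in astrocytes and at 12.5 and 10.9 CPM in microglia, and its receptor Cd200r1 was at 53.1 and 49.9 CPM in microglia and at 0.212 and 0.353 CPM in astrocytes. Cd47, the ligand of the receptor SIRPA that limits engulfment, was at 458 and 473 CPM in astrocytes against 230 and 227 CPM, and Sirpa at 3490 and 3502 CPM in microglia against 392 CPM in each astrocyte library. The growth factor receptor Fgfr3 lay on the astrocyte side, at 1016 and 1092 CPM against 9.88 and 9.82 CPM.

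The TGF-beta and fractalkine systems differed by member. Tgfb1 was at 213 and 246 CPM in microglia and at 7.13 and 6.42 CPM in astrocytes, and Tgfb2, a related ligand, at 5.90 and 6.31 CPM in microglia and at 59.7 and 62 CPM in astrocytes. Their receptor genes Tgfbr1 and Tgfbr2 were both higher in microglia, Tgfbr1 at 2436 and 2393 CPM against 18.7 and 20.5 CPM and Tgfbr2 at 948 and 942 CPM against 50.9 and 53.1 CPM. Cx3cl1, the ligand of CX3CR1, was at 47.8 and 47.4 CPM in astrocytes and 9.91 and 10.4 CPM in microglia. The TAM receptors, which recognise dying cells through bridging proteins, were not alike. Mertk was at 978 and 958 CPM in microglia and at 260 and 264 CPM in astrocytes, Tyro3 at 1.85 and 1.89 CPM in microglia and at 67.1 and 74.5 CPM in astrocytes. The bridging proteins Gas6 and Pros1 were both higher in microglia, Gas6 at 362 and 373 CPM against 171 and 174 CPM and Pros1 at 884 and 874 CPM against 100 and 104 CPM. Growth factors of astrocytes included Ptn (pleiotrophin), at 1702 and 1674 CPM against 28.4 and 28.1 CPM, and Vegfa, at 340 and 366 CPM against 4.26 and 5.55 CPM.

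**Figure D3:**
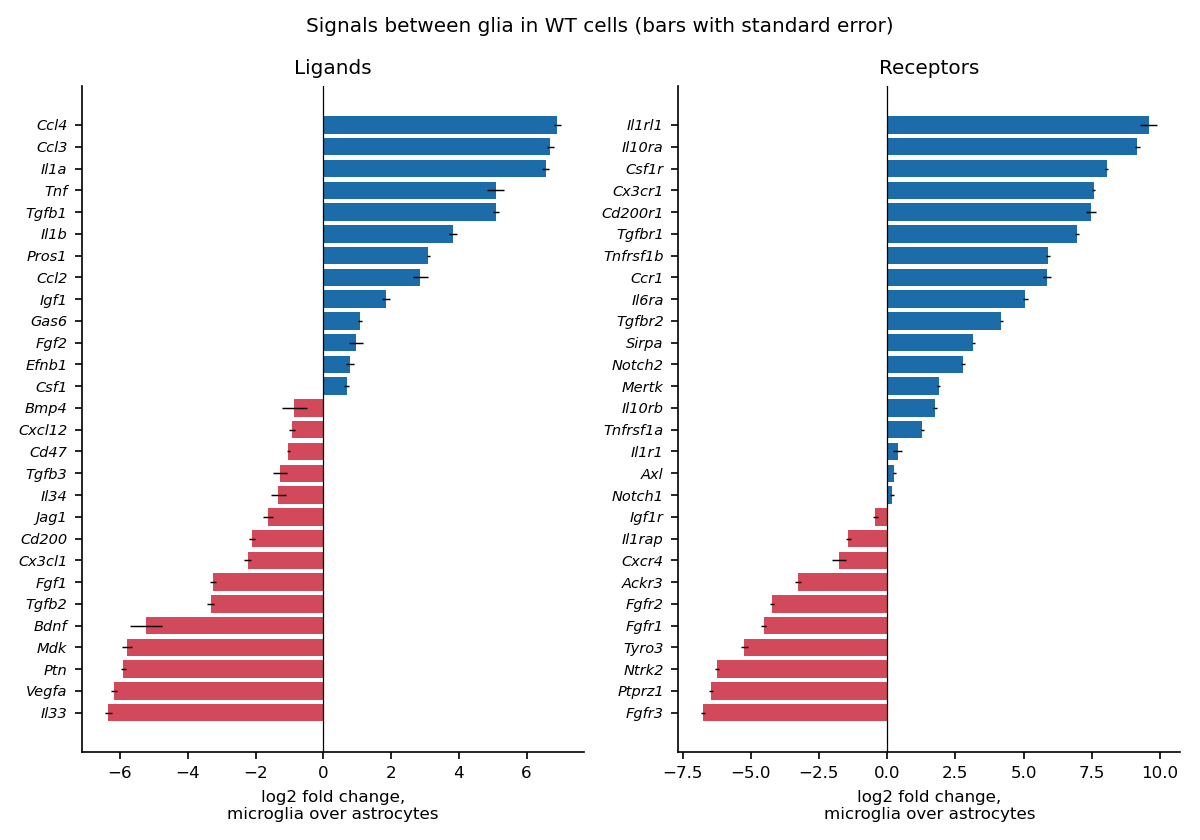
Log2 fold change (microglia minus astrocytes, ± standard error) of ligand and receptor genes, sorted by fold within ligands and receptors (28 ligands and 28 receptors); bars to the right are higher in microglia. Il33 and Il1rl1 lie on opposite sides, and so do Tgfb1 and Tgfb2, while Tgfbr1 and Tgfbr2 both lie on the microglia side.

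Factors that act on synapses and matrix were mostly astrocytic. Of 22 tested 20 were higher in astrocytes, 16 at least 4-fold, median -5.14, beside 42.9% and 22.8% of all genes tested. Chrdl1, a secreted antagonist of bone morphogenetic proteins, was at 147 and 157 CPM in astrocytes and at 0.533 and 0.616 CPM in microglia. The exceptions were Sparc, a matrix glycoprotein, at 3554 and 3628 CPM in microglia and at 1294 and 1248 CPM in astrocytes, and Thbs1, a thrombospondin, at 26.4 and 28.1 CPM against 3.29 and 3.83 CPM. Oligodendrocyte marker sums were higher in the astrocyte libraries too, as given above.

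Innate immune genes lay mostly with microglia. Of 22 complement genes 15 were higher in microglia and 7 in astrocytes, median 1.90, beside 41.3% and 42.9% of all genes tested. At least 4-fold higher were 11 in microglia and 3 in astrocytes, beside 15.9% and 22.8% of all genes tested. The C1q chains C1qa, C1qb and C1qc ranged from 3405 to 5734 CPM in microglia and from 23.7 to 37.4 CPM in astrocytes, and the fold was alike, from 7.23 to 7.24 on the log2 scale. C3 was low in both cells, at 11.5 and 10.0 CPM in microglia and at 4.08 and 4.43 CPM in astrocytes. The members higher in astrocytes by at least 4-fold were regulators of complement, Cd55 at 21.3 and 22.4 CPM against 2.17 and 2.54 CPM, Cd59a at 47.4 and 47.6 CPM against 7.36 and 8.01 CPM, and Csmd1 at 2.48 and 2.88 CPM against 0.178 and 0.109 CPM. C2, a serine protease of the classical pathway, was at 8.46 and 9.92 CPM in astrocytes against 2.31 and 2.50 CPM, and Serping1, the C1 inhibitor, at 17.0 and 16.6 CPM against 6.29 and 4.42 CPM. C3ar1, the receptor for the C3a fragment, was at 440 and 446 CPM against 3.05 and 3.64 CPM. Of 21 toll-like receptor and adaptor genes 19 were higher in microglia and 2 in astrocytes, median 4.22. Tlr13, a sensor of bacterial ribosomal RNA, was at 381 and 361 CPM against 0.605 and 1.14 CPM; Tlr3, a sensor of double-stranded RNA, lay the other way, at 203 and 207 CPM in astrocytes and at 113 and 110 CPM in microglia, as did Lbp, the lipopolysaccharide binding protein, at 55.6 and 57.1 CPM against 7.11 and 8.81 CPM. Of 20 Fc receptor and antigen presentation genes 19 were higher in microglia, median 4.77, among them Cd74, the invariant chain, at 1074 and 1148 CPM against 35.8 and 32.4 CPM. The class I gene H2-K1 differed less, at 590 and 612 CPM against 280 and 268 CPM. The co-stimulatory receptor Cd40 was low throughout and was the member higher in astrocytes, at 4.35 and 5.22 CPM against 2.49 and 3.52 CPM; that call was lost without microglia library 1 (adjusted p = 0.0866), without astrocyte library 2 (adjusted p = 0.187), with DESeq2 (adjusted p = 0.0617) and with housekeeping scaling (adjusted p = 0.308). Border macrophage, monocyte and neutrophil marker sums were also higher in the microglia libraries, and their part was not tested.

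Engulfment and digestion genes were mostly higher in microglia. Of 24 phagocytosis genes 19 were higher in microglia, 4 in astrocytes and 1 was not called, median 2.85. Among all genes tested 41.3% were higher in microglia and 42.9% in astrocytes. Trem2, a lipid-sensing receptor, was at 1223 and 1297 CPM in microglia and at 6.74 and 5.76 CPM in astrocytes. Astrocytes had the higher levels of Megf10, an engulfment receptor, at 52.5 and 55.3 CPM against 0.746 and 1.12 CPM, and of Mfge8, which bridges phosphatidylserine to integrins, at 4705 and 4665 CPM against 86.6 and 93.8 CPM. The adaptor Gulp1 was at 44.8 and 49.0 CPM against 2.17 and 3.19 CPM, and Dock1, a Rac activator, at 55.7 and 51.8 CPM against 45.6 and 38.3 CPM, a difference (-0.36) that turned to 0.04 with housekeeping scaling. Mfge8 was thus among the abundant astrocyte transcripts. Of 28 lysosomal genes 24 were higher in microglia, 3 in astrocytes and 1 was not called, median 2.02. Ctss, cathepsin S, was at 7746 and 7722 CPM in microglia and 57.7 and 56.9 CPM in astrocytes. The members higher in astrocytes were Laptm4b, at 394 and 381 CPM against 80.5 and 78.7 CPM, Cd63, a tetraspanin, at 815 and 769 CPM against 466 and 467 CPM, and Gaa, acid alpha-glucosidase, at 304 and 297 CPM against 257 and 268 CPM, which turned with housekeeping scaling (from -0.19 to 0.21 on the log2 scale).

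**Figure D4:**
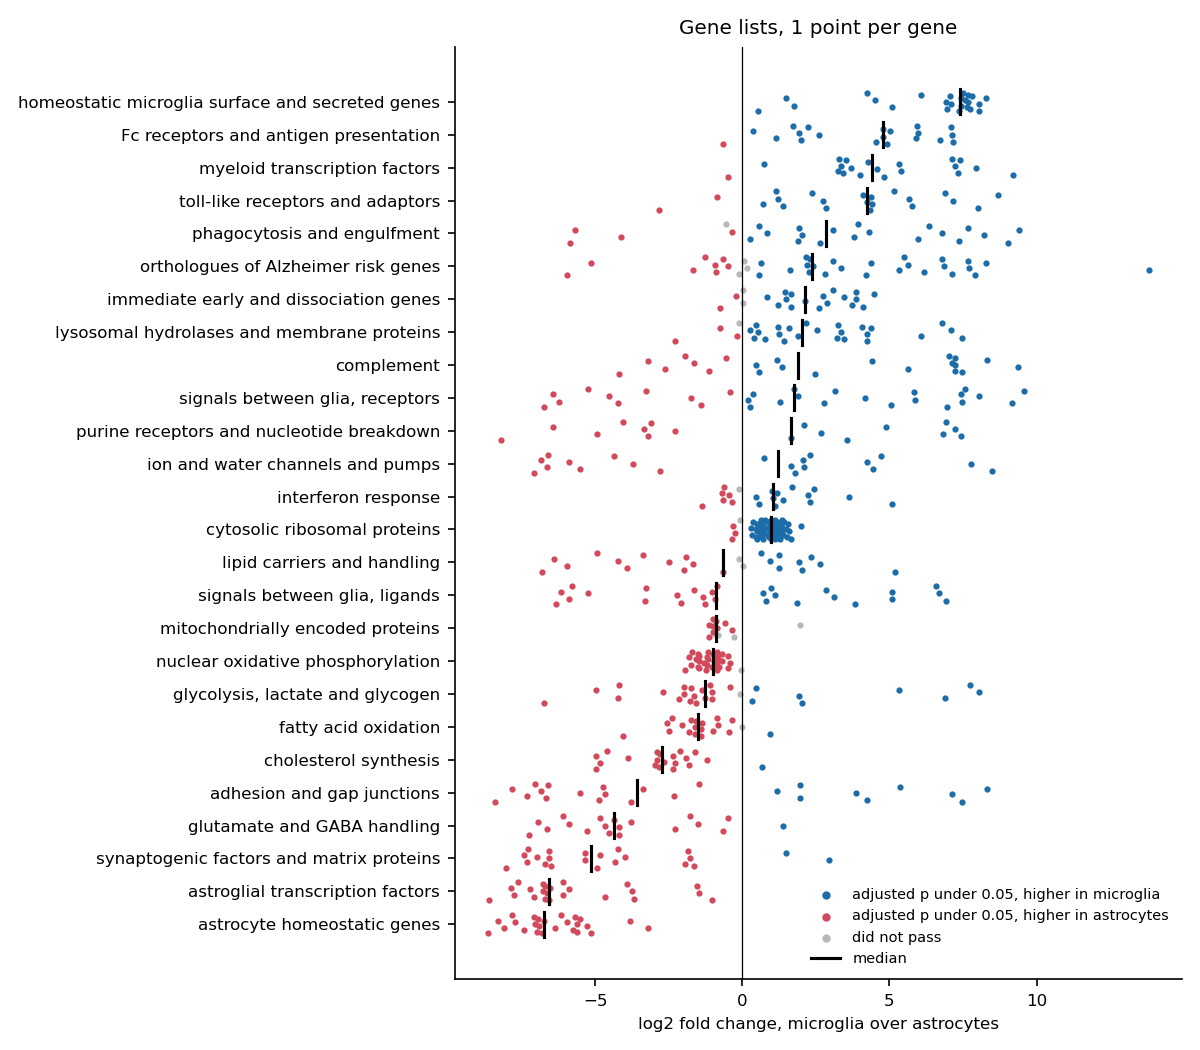
Log2 fold changes (microglia minus astrocytes) of the tested members of each gene list, 1 point per gene, with the median of the list as a bar. The medians run from 7.40 for homeostatic microglia genes to -6.74 for homeostatic astrocyte genes, with ion channels, purine genes and ligands spread over both sides.

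Sterol synthesis and energy genes were higher in astrocytes. Of 20 genes of cholesterol synthesis 19 were higher in astrocytes, 15 at least 4-fold, median -2.74. The corresponding shares of all genes tested were 42.9% and 22.8%. Msmo1, a sterol oxidase, was at 1643 and 1760 CPM in astrocytes and at 59.1 and 60.1 CPM in microglia, and Sqle, squalene epoxidase, at 295 and 305 CPM against 9.52 and 9.43 CPM. Ebp, a sterol isomerase, was the exception, at 67.3 and 65.5 CPM in microglia and 43.9 and 39.7 CPM in astrocytes. Oligodendrocytes also make much cholesterol, and their marker sums were higher in the same libraries. Of 20 fatty acid oxidation genes 18 were higher in astrocytes, median -1.50, and Acads, a short-chain dehydrogenase, was higher in microglia, at 47.1 and 51.6 CPM against 25.2 and 26.2 CPM. Of 34 nuclear genes of oxidative phosphorylation 33 were higher in astrocytes, though none of the 34 reached 4-fold (median -1.0). Atp5b, an ATP synthase subunit, was at 1370 and 1350 CPM in astrocytes and 606 and 597 CPM in microglia. Of 13 mitochondrially encoded genes 9 were higher in astrocytes and 4 were not called, median -0.91.

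Genes of sugar metabolism differed by isoenzyme. Of 27 genes of glycolysis, lactate and glycogen 18 were higher in astrocytes and 8 in microglia, median -1.26, beside 42.9% and 41.3% of all genes tested. At least 4-fold higher were 6 in astrocytes and 5 in microglia, beside 22.8% and 15.9% of all genes tested. Aldoc, the brain aldolase, was at 5981 and 5939 CPM in astrocytes and at 52.6 and 58.6 CPM in microglia, and Pygm, a glycogen phosphorylase, at 263 and 252 CPM against 8.56 and 7.98 CPM. Hexokinase 2 (Hk2) was at 126 and 122 CPM in microglia and at 1.36 and 0.761 CPM in astrocytes, and hexokinase 3 (Hk3) at 146 and 155 CPM against 0.967 and 0.462 CPM, while hexokinase 1 (Hk1) was higher in astrocytes, at 125 and 133 CPM against 60.8 and 64.0 CPM. Among carriers, Slc2a5, a fructose transporter, was at 996 and 983 CPM in microglia and 3.78 and 3.75 CPM in astrocytes, and Slc2a1, the glucose transporter GLUT1, at 201 and 195 CPM in microglia and 796 and 768 CPM in astrocytes. Endothelial cells carry much GLUT1, and their marker sums were higher in the astrocyte libraries. Ldha, a lactate dehydrogenase subunit, was not called, with a log2 difference of -0.08 ± 0.05 (adjusted p = 0.154), which turned to 0.32 with housekeeping scaling.

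Of 23 lipid handling genes 9 were higher in microglia, 12 in astrocytes and 2 were not called. Of all genes tested 41.3% and 42.9% were higher in microglia and in astrocytes. Clu (clusterin) was at 6632 and 6381 CPM in astrocytes and 102 and 108 CPM in microglia, and Fabp7, the brain fatty acid binding protein, at 232 and 214 CPM against 2.63 and 1.34 CPM. Microglia had the higher levels of Lpl, lipoprotein lipase, at 131 and 126 CPM against 3.36 and 3.62 CPM, and of the cholesterol exporter Abca1, at 368 and 308 CPM against 81.6 and 84.3 CPM.

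Ribosomal protein genes were higher in microglia by a small margin. Of 68 tested 64 were higher in microglia, 3 in astrocytes and 1 was not called, with a median of 0.97 and none at 4-fold. The 3 were Rpl24 (-0.26), Rpl27 (-0.33) and Rpl38 (-0.34), and all 3 turned with housekeeping scaling. The calls of Rpl24 and Rpl38 were also lost with DESeq2 (adjusted p = 0.0528 and 0.123), limma-trend (0.0531 and 0.0933), the fit over all 16 libraries (0.0977 and 0.354), without astrocyte library 1 (0.0503 and 0.276) and without microglia library 2 (0.25 and 0.326). That of Rpl24 was lost without astrocyte library 2 (0.0852) and that of Rpl38 with limma-voom (0.0554). Rack1, the ribosomal scaffold the study deals with, followed them, at 108 and 104 CPM in microglia and at 53.0 and 50.9 CPM in astrocytes (1.03 ± 0.07, adjusted p = 1.24e-14, both microglia libraries above both astrocyte libraries). Groups without overlap, in either direction, were found for 92.0% of all genes tested. Rps3, a small-subunit protein, was at 221 and 215 CPM in microglia against 92.4 and 86.9 CPM in astrocytes. The ribosomal median moved to 0.72 with library totals alone and to 1.37 with housekeeping scaling, above 0 under both. Early response genes were also higher in microglia, 17 of 21, median 2.14, among them Fos, at 952 and 1012 CPM against 149 and 143 CPM, Jun, at 1008 and 1134 CPM against 72.5 and 74.4 CPM, and Zfp36, a destabiliser of cytokine mRNA, at 1940 and 2114 CPM against 92.7 and 89.4 CPM. Klf4 and Hspa1a were called higher in astrocytes, at 10.8 and 10.5 CPM against 6.04 and 6.45 CPM and at 31.2 and 26.5 CPM against 22.7 and 26.5 CPM, where the Hspa1a libraries meet, its call was lost in several settings, among them DESeq2, without microglia library 1 and without astrocyte library 1 (adjusted p = 0.144, 0.268 and 0.401) and its direction turned with housekeeping scaling. Early response genes are also induced when tissue is dissociated, and the way of isolating the cells is not given in the sources used here. Of 20 interferon response genes 13 were higher in microglia and 6 in astrocytes, median 1.03, beside 41.3% and 42.9% of all genes tested. Mx1, an antiviral GTPase, was at 8.95 and 7.79 CPM in microglia and at 0.0302 and 0.435 CPM in astrocytes, whereas Ifit1, which binds viral RNA, was at 8.53 and 8.30 CPM in microglia and 21.6 and 21.7 CPM in astrocytes.

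Most orthologues of Alzheimer risk genes were higher in microglia, 25 of 36, while 8 were higher in astrocytes and 3 were not called. The median was 2.36, and 41.3% and 42.9% of all genes tested were higher in microglia and in astrocytes. At least 4-fold higher were 22 in microglia and 2 in astrocytes, beside 15.9% and 22.8% of all genes tested. Cd33, a sialic acid receptor, was at 853 and 870 CPM in microglia and at 2.69 and 2.80 CPM in astrocytes, and Inpp5d, a lipid phosphatase, at 1036 and 1080 CPM against 4.50 and 5.52 CPM. Cass4, an adaptor protein, was at 54.3 and 61.0 CPM in microglia and had no count in the WT astrocyte libraries. With 3 counts in each library taken as the floor, it was at least 636-fold higher in microglia. Bin1, which shapes membranes, was at 660 and 680 CPM against 158 and 135 CPM. On the astrocyte side, besides Clu and Apoe, stood Fermt2, an integrin activator, at 339 and 369 CPM against 10.6 and 9.32 CPM, and App, the amyloid precursor, at 588 and 585 CPM against 300 and 311 CPM.

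The same cell types in the other backgrounds gave a view of how far the WT contrast carried. Of the 2932 genes at least 4-fold higher in WT microglia, both microglia libraries lay above both astrocyte libraries for 95.8% in CKO, 97.1% in AD WT and 96.6% in AD CKO, against 46.3%, 45.7% and 47.0% of all tested genes. For the 4207 genes at least 4-fold higher in WT astrocytes, the reverse order held for 95.6%, 96.6% and 97.7%, against 46.2%, 46.1% and 45.1%. The order held in all 3 other backgrounds for 92.7% and 92.5% of them. Apoe and Rack1 were among the genes whose order turned. On CPM scaled over all 16 libraries, Apoe was at 16810 and 17500 CPM in CKO microglia against 11360 and 10030 CPM in CKO astrocytes, and at 18020 and 17970 CPM against 9059 and 8373 CPM in AD CKO, the reverse of the WT order. In AD WT the astrocyte libraries stayed above, at 14840 and 13130 CPM against 10940 and 11160 CPM. Rack1, the gene the knockout targets in microglia, was at 45.5 and 47.1 CPM in CKO microglia against 90.9 and 84.9 CPM in CKO astrocytes, where the order turned. It was at 129 and 132 CPM against 67.5 and 64.4 CPM in AD WT, and at 52.6 and 53.4 CPM against 48.3 and 47.3 CPM in AD CKO, with the microglia libraries above in both. Whether these contrasts differ between backgrounds was not tested. Sex-linked RNA of microglia also differed between backgrounds. On the same scaling Ddx3y was at 8.77 and 6.29 CPM in WT and 0.0365 and 0.353 CPM in CKO microglia. It was at 35.0 and 31.6 CPM in AD WT and 69.1 and 67.3 CPM in AD CKO microglia. Xist was at 219 and 216, 292 and 266, 163 and 178, and 94.4 and 88.6 CPM in that order. In the astrocyte libraries Ddx3y ran from 80.3 to 106.5 CPM.

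**Figure D5:**
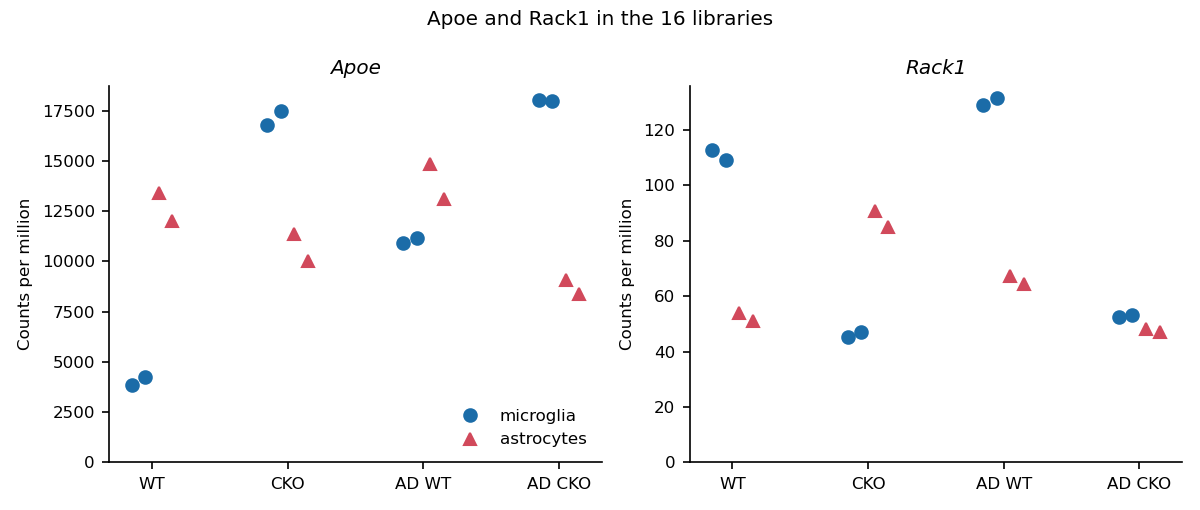
CPM of Apoe and Rack1 in all 16 libraries, scaled together, by genotype and cell type; each point is 1 library. Apoe is higher in astrocytes in WT and AD WT and higher in microglia in CKO and AD CKO, and Rack1 is lower in CKO microglia than in CKO astrocytes.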

How the data were processed

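RNA from 4 libraries was compared, WT microglia and WT astrocytes, n = 2 each, grouped by the titles in the labels. The authors deposited 1 table per cell type of expected counts per gene, estimated and unscaled, of which 27.5% to 33.6% of the non-zero values in these libraries were fractional; per the submitters' processing notes the tools were fastp, HISAT2 and StringTie on mm10, and versions, annotation and the counting step are not given in the sources used here. Counts were rounded, the tables were joined on gene identifier, and 52073 of the 55405 shared features (94.0%) matched GENCODE M21, which supplied exon lengths. R 4.3.3 and edgeR 4.0.16 were used: filterByExpr, TMM over the 4 libraries, and a robust quasi-likelihood F-test, two-sided, with no block. The standard error is the log2 fold change divided by the root of F. The script was tested on simulated data. The common biological coefficient of variation was 0.0619. The libraries of a group differed by more than sampling noise (chi-square per degree of freedom 6.03 in microglia and 4.69 in astrocytes) and were counted as 2. Replicate numbers were checked as pairs: deviations of same-numbered libraries correlated at -0.04, and with 2 pairs they were not treated as such.

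Gene lists, members and the comparison were chosen with earlier results of these data known. The genes named were Rack1, the 5 markers, the 15 largest fold changes on each side among called genes with a mean of at least 50 CPM whose groups did not overlap, excluding predicted names, the 10 most abundant genes of each cell type, and of each list up to 6 members with the smallest p and up to 4 called against the median of the list. Genes outside this rule were chosen after their values were seen: the ligands and receptors not called by it, sex-linked genes, exceptions and contrasting family members, among them Il34, Csf1, Tgfb1, Tgfb2, Tyro3, Hk1, Glul and App. Alternatives were other scalings, filters, DESeq2 1.42.0, limma 3.58.1 (voom and trend), a fit over all 16 libraries, a fold threshold of 2, the replicate block and leaving out each library. Without genes of chromosomes X and Y, and without features that differ in symbol, were added after seeing the data. A few list members are not reported here by name; they are counted in their lists.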

Additional observations from a re-analysis of the deposited data

Results flagged for a closer look

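For some genes named by the rule, both microglia libraries lay on one side of both astrocyte libraries in WT and on the other side in another background. None of these differences between backgrounds was tested, and sex-linked RNA of microglia also differed between backgrounds, as given above. The values are log2 ratios of group means, microglia over astrocytes, on CPM scaled over all 16 libraries, beside the fitted WT value. Apoe stood at -1.69 in WT, 0.68 in CKO and 1.05 in AD CKO, and Rack1 at 1.03 in WT and -0.92 in CKO. Among immune genes Tlr3 stood at -0.88 in WT and 0.62 in CKO, and Cd40, the receptor for CD40 ligand, at -0.67 in WT, 1.70 in CKO and 2.78 in AD CKO; its WT call was lost in 4 settings. Among engulfment and lysosomal genes Dock1 stood at -0.36 in WT, 0.79 in CKO and 0.67 in AD WT, Cd63 at -0.76 in WT and 0.27 in AD CKO, and Gaa at -0.19 in WT, 1.55 in CKO, 0.55 in AD WT and 1.03 in AD CKO. The ribosomal genes Rps3 and Rps9 stood at 1.28 and 1.35 in WT and at -0.30 and -0.34 in CKO. Aplp2, a relative of App, stood at -1.26 in WT and 0.0656 in AD WT, and Tek, an endothelial receptor, at -1.09 in WT and 0.14 in AD WT. The neuron genes Syt1 and Slc17a7, at 1.07 CPM or less in the WT libraries, stood at 2.83 and 1.26 in WT and at -0.71 and -1.04 in AD CKO. The WT call of Slc17a7 was lost in 8 settings, among them DESeq2 (adjusted p = 0.131), the replicate block (0.104) and leaving out either astrocyte library or microglia library 1 (0.174 to 0.218). Snrpd3, one of the housekeeping genes, stood at 0.24 in WT, -0.65 in CKO, -0.20 in AD WT and -0.0557 in AD CKO, and its WT call was lost without astrocyte library 1 (adjusted p = 0.149) and with upper quartile factors or library totals (0.895 and 0.968).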

How the results depend on the processing

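The 4 counts of genes stayed within 1.5 times their values in all settings tried except a test against a fold of 2, which called 4474 genes higher in microglia and 5331 in astrocytes. Leaving out 1 library gave 7056 to 7630 genes higher in microglia and 7034 to 8112 in astrocytes, and 2941 to 2994 and 3981 to 4533 at 4-fold; the lone library left in a group is assumed to vary like the other group. The fit with the replicate number as a block gave 7424 and 7670 genes, and 2947 and 4214 at 4-fold; the numbers were not taken as pairs. Without genes of chromosomes X and Y the counts were 7391, 7646, 2830 and 4057, and with features of the same symbol in both tables they were 7595, 7881, 2914 and 4191; both alternatives were chosen after seeing the data. Scaling mattered for small differences and for the split of the 4-fold calls. The share of 4-fold calls higher in microglia was 41.1% with TMM factors, 36.3% with library totals alone and 49.5% with housekeeping scaling. The median over all genes moved by -0.23 with upper quartile factors, -0.25 with library totals alone and 0.40 with the 10 housekeeping genes, and the share of calls higher in microglia was 49.1%, 43.2%, 42.8% and 58.6% with TMM factors and with these 3, in that order. With housekeeping scaling the direction turned for Dock1 (0.0447), Gaa (0.21), Hspa1a (0.17), Ldha (0.32), Rpl24 (0.14), Rpl27 (0.0717) and Rpl38 (0.062), and with library totals alone for Snrpd3 (-0.00386). With 2 libraries a group, p-values cover the spread of these libraries only, and cell type, deposited table and the level of sex-linked genes coincide.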

Other observations

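Some genes had no count in one cell type. In the WT astrocyte libraries 371 genes at least 4-fold higher in microglia were at 0. In the WT microglia libraries 405 genes at least 4-fold higher in astrocytes were at 0. With 3 counts in each library as the floor, the bound fell under 4-fold for none of the 371 and for 48 of the 405. At a mean of 10 CPM or more in the other cell type the sides were unequal, with 63 genes at 0 in astrocytes and 6 at 0 in microglia, of which 25 and 4 are annotated as protein coding. Of the 63, 24 were also at 0 in all 8 astrocyte libraries, among them the processed pseudogene Gm13064, at a mean of 65.5 CPM in WT microglia, and the long noncoding RNA Gm13849, at 64.0 CPM. Of the 6, Rtl8a, a gene of retroviral origin on chromosome X, was at 0 in all 8 microglia libraries and at a mean of 48.0 CPM in WT astrocytes. The tables differ in annotation, and its part in zeros that run through a whole table was not tested. Tnfrsf14, a receptor of the TNF family, was at a mean of 91.5 CPM in WT microglia and at 0 in the WT astrocyte libraries, with 10 counts over all 8 astrocyte libraries. These genes were chosen after their values were seen.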
